A study of Mus musculus with 16 samples.

Results

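The genes described here are the matrix metalloproteinases (MMP), the ADAMTS proteases, the ADAMTS-like proteins and the tissue inhibitors of metalloproteinases (TIMP), as expressed in the inguinal white fat of mice. They were taken by symbol, as every gene whose name in the authors' tables begins with Adamts, or with Mmp or Timp followed by a digit. The rule found 45 of the 55487 genes in the count table: 17 MMP, 19 ADAMTS, 5 ADAMTS-like and 4 TIMP genes. The study compared 4 groups of 4 male mice, each 6 to 7 months old: wild-type (WT) littermates on chow, Kmo knockout (KO) mice on chow, WT mice on a high-fat diet (HFD) and KO mice on HFD. The knockout is of the whole body and removes kynurenine 3-monooxygenase, an enzyme of tryptophan breakdown. Inguinal fat is a subcutaneous depot, and each library was made from poly-A RNA of the whole tissue.

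MMPs are zinc proteases, secreted or held at the cell surface, that cut collagens, elastin, laminins and other matrix proteins and are made as inactive precursors. ADAMTS proteases are secreted enzymes with thrombospondin repeats; some cut the large proteoglycans, some trim procollagens, and the ADAMTS-like proteins share their repeats but lack the protease domain. TIMPs bind the active sites of these enzymes and block them, and adipose tissue is known to remodel its matrix as fat cells enlarge during overfeeding.

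The promoters of 30 of the 45 genes were in the RefSeq table used here (GRCm38.p6), and 6 of them are shown: 5 hold motif matches of the kinds counted after them, and Adamts12, a gene that rose on HFD, holds none of these letters. For each, the 150 bases before the annotated start are printed on the gene's own strand. Capitals mark letters that match, on either strand, an AP-1 element (TGANTCA), a GC box (GGGCGG, or CCGCCC on the other strand), a TATA box (TATAAA) or a CCAAT box. Mmp3 and Mmp13 are stromelysin and collagenase genes from a cluster on chromosome 9, Adamtsl3 and Adamtsl4 also rose on HFD, and Timp1 is an inhibitor.
Mmp3, chr9:7445672-7445821, plus strand: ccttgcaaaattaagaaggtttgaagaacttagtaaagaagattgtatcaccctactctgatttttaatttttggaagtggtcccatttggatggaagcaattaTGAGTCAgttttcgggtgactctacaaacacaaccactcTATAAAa
Mmp13, chr9:7272364-7272513, plus strand: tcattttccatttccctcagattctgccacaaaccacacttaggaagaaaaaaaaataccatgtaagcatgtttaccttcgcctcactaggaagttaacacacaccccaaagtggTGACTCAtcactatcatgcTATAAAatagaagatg
Adamts12, chr15:11064623-11064772, plus strand: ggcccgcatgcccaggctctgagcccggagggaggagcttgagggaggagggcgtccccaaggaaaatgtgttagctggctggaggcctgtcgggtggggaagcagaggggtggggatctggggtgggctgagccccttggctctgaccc
Adamtsl3, chr7:82335544-82335693, plus strand: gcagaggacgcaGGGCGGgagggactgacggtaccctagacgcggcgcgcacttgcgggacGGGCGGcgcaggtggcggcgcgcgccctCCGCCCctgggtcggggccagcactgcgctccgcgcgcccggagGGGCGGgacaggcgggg
Adamtsl4, chr3:95687918-95688067, minus strand: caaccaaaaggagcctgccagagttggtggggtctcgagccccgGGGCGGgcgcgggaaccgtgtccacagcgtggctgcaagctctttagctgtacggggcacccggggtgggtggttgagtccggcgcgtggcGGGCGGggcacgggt
Timp1, chrX:20870016-20870165, plus strand: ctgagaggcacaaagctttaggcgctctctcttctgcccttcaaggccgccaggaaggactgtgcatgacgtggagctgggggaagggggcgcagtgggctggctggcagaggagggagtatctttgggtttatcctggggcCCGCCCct
Over the full 250 bases before the start, the AP-1 letters occurred in 4 of the 30 genes, Mmp3, Mmp7, Mmp12 and Mmp13, all in the chromosome 9 cluster. Of the 32851 promoters of that length in the table, 6.75% held them. The GC box occurred in 19 of the 30 genes and in 32.7% of all promoters. It was present in 7 of the 8 genes with a promoter in the table that passed the test for diet (Adamts12 was the exception), whereas the AP-1 letters were in none of these 8. Adamts4, Adamts5, Adamts6, Adamts16, Mmp9 and Mmp19 also passed but have no promoter in the table. The Adamts20 promoter belongs to a start 61068 bases inside the gene, and the AP-1 match of Mmp12 to a start 2993 bases inside it. Counts for the 30 genes are per gene, while the shares of all promoters are per promoter. TATAAA was found in 5 of the 30 genes and in 12.4% of all promoters, and CCAAT in 7 of the 30 and in 33.8%. These matches describe letters in the window and were not set against any measurement of binding.

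Libraries held 13824404 to 16909361 counted read pairs, so that 1 CPM, the unit in which counts were scaled to the effective library total, stood for 14.1 to 16.5 counts. Kmo itself had 40 to 298 counts in the WT libraries and 1 to 8 in the KO libraries, so every library matched its genotype label. Per the file headers, WT chow replicate 2, WT HFD replicates 3 and 4 and KO HFD replicate 1 came from a single lane and the other 12 libraries were merged over lanes. Markers of T cells summed to between 6.8 and 395 CPM and those of skeletal muscle to between 18.3 and 5240 CPM, and the T cell sums had high and low libraries in each of the 4 groups. The highest muscle sums were 5240 CPM in WT chow and 2292 in WT HFD, against 894 in KO chow and 474 in KO HFD. In whole tissue, fewer cells of a type and less RNA per cell cannot be told apart. Adipocyte markers, at 23616 to 38977 CPM in sum, were high in every library.

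Levels between genes are compared as CPM per kilobase of exon. The inhibitor Timp2 had the highest mean of the 45 genes over the 16 libraries, with group means from 86.1 CPM per kilobase (KO chow) to 121 (WT HFD). Over all libraries the next were the gelatinase Mmp2 at 52.4, the proteoglycan-cutting protease Adamts5 at 50.9, Timp4 at 27.1, the stromelysin Mmp3 at 22.6 and the procollagen-trimming protease Adamts2 at 22.6. Mmp14, a membrane-bound protease that activates the Mmp2 precursor, stood at 17.2, Mmp19 at 16.8, Timp3 at 16.6 and Mmp28 at 13.6. Timp1, the inhibitor most often described as inducible, was the lowest TIMP at 2.59. The order of Mmp2 and Adamts5 differed with diet: on chow Mmp2 had the higher mean in both genotypes, and on HFD Adamts5 did, as the plot of levels shows.

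**Figure D1:**
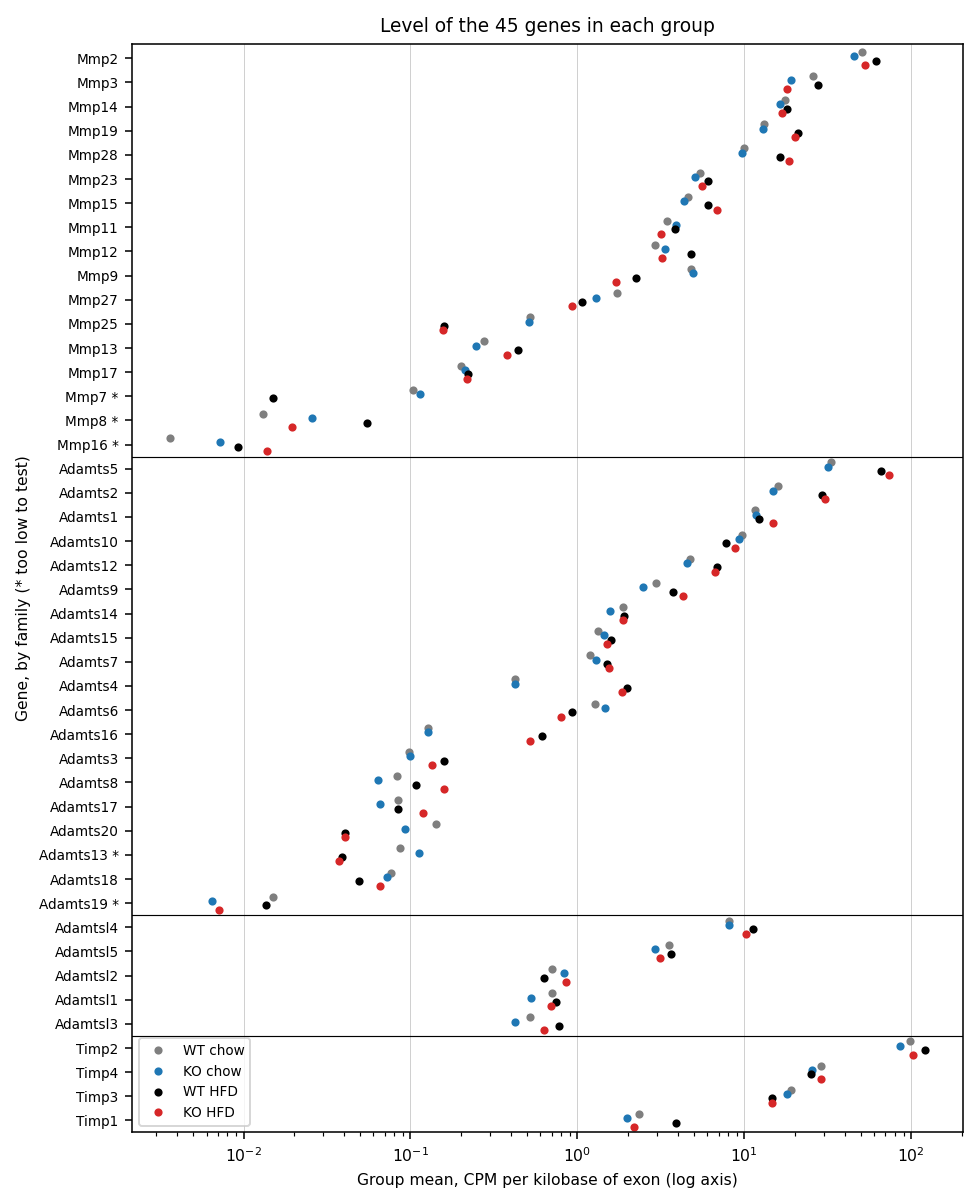
Group mean of each of the 45 genes in CPM per kilobase of exon on a log axis, ordered within each family by the mean over all 16 libraries; group means of 0 are not drawn and an asterisk marks the 5 genes too low to test. Timp2, Mmp2 and Adamts5 lie farthest right, and the HFD points of Adamts5 and Adamts4 lie to the right of their chow points.

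Within each family 1 gene carried a large share of the summed level. Summed over the 19 ADAMTS genes, the level was 84.6 ± 27.1 CPM per kilobase for WT and 81.4 ± 23.4 for KO on chow, against 135 ± 6.19 for WT and 147 ± 25.6 for KO on HFD (mean ± SD, n = 4 each). Adamts5 made up 25.4 to 42.8% of that sum in WT chow and 31.6 to 43.3% in KO chow. On HFD its share was 45.9 to 51.7% in WT and 48.5 to 51.1% in KO, so no HFD library overlapped a chow library. Summed MMP levels were 141 ± 39.8, 127 ± 35.3, 169 ± 32.3 and 148 ± 12 CPM per kilobase in the same order of groups. Summed TIMP levels were 149 ± 71.2, 132 ± 52.9, 165 ± 57.5 and 148 ± 29.5, and for both families the ranges of all 4 groups overlapped.

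Of the 45 genes, 40 had enough counts to be tested. Mmp7, Mmp8, Mmp16, Adamts13 and Adamts19 did not, with 16 to 86 counts each over all 16 libraries. Over both genotypes 14 of the 40 were called for diet, against 5471 of all 16549 genes tested. They were 8 ADAMTS, 4 MMP and 2 ADAMTS-like genes, and all calls within 1 genotype fell on these 14. No TIMP passed the test. In WT mice 5 of the 40 were higher on HFD (12.5%) and 0 lower at an adjusted p under 0.05 in edgeR's quasi-likelihood test. Over all 16549 genes tested, 6.9% were called higher and 4.92% lower in that comparison. In KO mice 4 were higher (10%) and 0 lower, against 7.28% and 5.23% of all genes. Taking the mean diet effect over both genotypes, 11 were higher (27.5%) and 3 lower (7.5%), against 17.1% and 16% of all genes. The median log2 fold change of the 40 genes in that comparison was 0.24, beside -0.04 over all genes. With upper-quartile factors the split of all genes over both genotypes turned from 2827 higher and 2644 lower to 2309 higher and 3298 lower, and that of the 40 genes from 11 and 3 to 10 and 4. In WT the split of all genes turned from 1142 and 815 to 902 and 1031, and in KO from 1205 and 866 to 919 and 1113.

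The 5 genes called in WT were Mmp19, Mmp28, Adamts2, Adamts4 and Adamts16, and the 4 called in KO were Mmp28, Adamts2, Adamts4 and Adamts5. Mmp28, Adamts2 and Adamts4 were thus called in both genotypes, which share no library. These 3 are 7.5% of the 40 genes, against 7.41% of all genes called in both with the same sign. Of the 40 genes, 35 had a diet effect of the same sign in WT and KO (27 above 0 and 8 below), or 87.5%, against 82.6% of all genes tested.

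**Figure D2:**
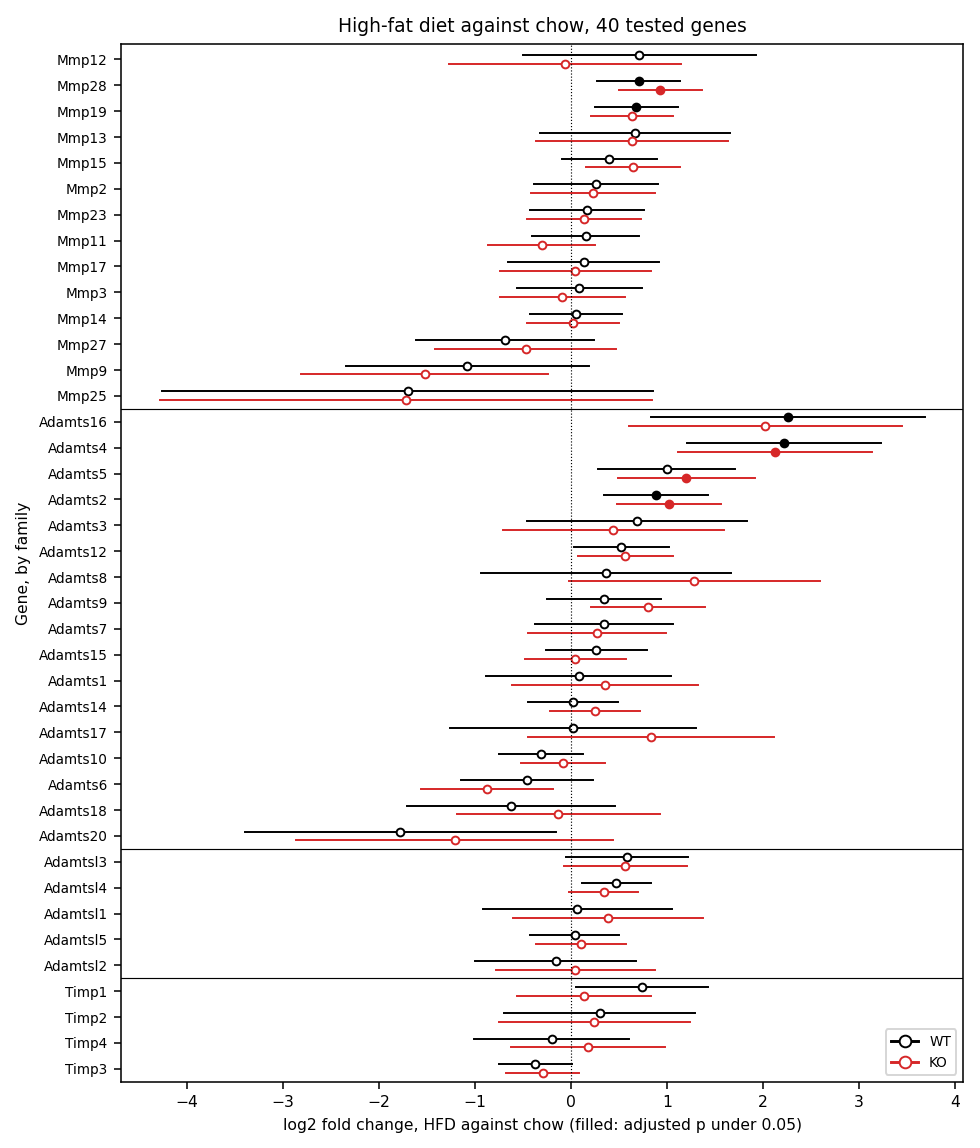
Log2 fold change of HFD against chow for the 40 tested genes in WT (black) and KO (red), with 95% intervals from edgeR and filled points where the adjusted p was under 0.05. Adamts16 and Adamts4 lie above 2 on this scale in WT and the 4 TIMPs have open points in both genotypes.

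Adamts4 encodes aggrecanase-1, which cuts aggrecan and versican. Its values were 1.76, 2.54, 2.39 and 1.47 CPM in WT chow and 2.83, 1.56, 1.21 and 2.5 CPM in KO chow. On HFD they were 4.26, 14.9, 11.7 and 7.37 CPM in WT and 2.41, 12.7, 9.03 and 11.2 CPM in KO. In 7 of the 8 HFD libraries the gene was above every chow library, and the exception was KO HFD replicate 1. Adamts4 rose 4.66-fold in WT (log2 fold change 2.22, SE 0.48, adjusted p 0.0108 in edgeR) and 4.35-fold in KO (2.12, SE 0.48, adjusted p 0.0128). Over both genotypes the log2 fold change was 2.17 (95% interval 1.46 to 2.89, adjusted p 3.99e-04 in edgeR). At 1.17 CPM per kilobase over all libraries it remained a gene of low level.

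Adamts5, aggrecanase-2, is by far the more abundant of the pair. It had 414, 334, 531 and 143 CPM in WT chow and 287, 394, 186 and 505 CPM in KO chow. On HFD it had 741, 667, 725 and 704 CPM in WT and 580, 911, 902 and 765 CPM in KO. All 8 HFD libraries were above all 8 chow libraries, a pattern found for 3 of the 40 genes (7.5%) and for 4.33% of all genes tested. Adamts5 rose in KO by 1.2 on the log2 scale (SE 0.34, adjusted p 0.0319 in edgeR). In WT the log2 fold change was 1.0 (SE 0.33), and its adjusted p of 0.0635 in edgeR missed the threshold although the groups did not overlap; 6 alternatives put it past the threshold, with limma-voom and DESeq2 among them. Over both genotypes it was 1.10 (interval 0.59 to 1.60, adjusted p 0.00318 in edgeR). Adamts5 lies beside Adamts1 on chromosome 16, within a stretch of 108 kb (GRCm38, 85793827 to 85901828).

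Adamts1, a versican-cutting protease, did not pass the test. It had 37.2, 37.4, 133 and 39.7 CPM in WT and 53.2, 76.1, 31.4 and 86.6 in KO on chow, and 65.8, 75.9, 70.5 and 48.4 in WT and 37.3, 107, 98.7 and 73.2 in KO on HFD. For Adamts1 the log2 fold change over both genotypes was 0.22 (interval -0.47 to 0.90, adjusted p 0.627 in edgeR), and this interval overlaps that of its neighbour Adamts5. In WT chow, replicate 3 stood far from the others, at 133 CPM against 37.2 to 39.7. The difference between the 2 genes was not tested.

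Adamts9 and Adamts20 belong to the same branch of ADAMTS proteases and also cut versican. Adamts9 had 46.4, 37.4, 68.2 and 25.5 CPM in WT and 36.2, 39.9, 28.5 and 43.7 in KO on chow, and 49.8, 59.2, 69.1 and 47.4 in WT and 35.8, 68.9, 75.4 and 77.6 in KO on HFD. It rose over both genotypes by 0.57 on the log2 scale (SE 0.20, adjusted p 0.0368 in edgeR), with overlapping groups. Adamts20 was a rare transcript, with 0.717, 1.18, 0.665 and 2.55 CPM in WT and 1.01, 0.407, 1.63 and 0.313 in KO on chow, and 0.699, 0.255, 0.133 and 0.378 in WT and 1.06, 0.2, 0.123 and 0.0697 in KO on HFD. It fell by 1.5 on the log2 scale over both genotypes (SE 0.54, adjusted p 0.0456 in edgeR). In 5 of 8 HFD libraries it was below every chow library.

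Adamts2 and Adamts14 trim the amino-terminal propeptide from fibrillar procollagens. Adamts2 had 154, 189, 161 and 88.7 CPM in WT chow and 166, 107, 78.1 and 204 CPM in KO chow. Under HFD the values were 280, 273, 279 and 263 CPM in WT and 239, 287, 307 and 296 CPM in KO. Again all 8 HFD libraries were above all 8 chow libraries, and the WT HFD values ran from 263 to 280 CPM. Adamts2 rose by 0.88 on the log2 scale in WT (SE 0.25, adjusted p 0.0367 in edgeR), by 1.02 in KO (SE 0.26, adjusted p 0.0199) and by 0.95 over both (adjusted p 0.00142). Adamts14 had 11.7, 9.06, 11.2 and 6.96 CPM in WT and 7.61, 8.48, 7.56 and 9.07 in KO on chow, and 7.12, 12.2, 12.8 and 7.37 in WT and 7.86, 11.6, 11 and 8.44 in KO on HFD. Its log2 fold change was 0.13 over both genotypes (adjusted p 0.529 in edgeR), and its groups overlapped.

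Adamts16, a protease whose substrates are less well known, was the third gene without overlap between the diets. It had 0.586, 1.37, 1.2 and 0.319 CPM in WT chow and 1.82, 0.475, 0 and 1.19 CPM in KO chow, where replicate 3 had 0 counts, which allows up to 3. The HFD libraries had 2.35, 4.02, 5.25 and 5.1 CPM in WT and 3.47, 3.67, 3.25 and 3.91 CPM in KO. It rose in WT by 2.26 on the log2 scale (SE 0.67, adjusted p 0.0410 in edgeR). In KO the log2 fold change was 2.03 (SE 0.67, adjusted p 0.0593 in edgeR, 0.0166 in limma-voom and 0.00788 in DESeq2), and over both genotypes it was 2.14 (adjusted p 0.00362).

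Adamts12 cuts cartilage oligomeric matrix protein and Adamts6 acts on components of fibrillin microfibrils. Adamts12 had 63.9, 67.9, 46.4 and 28.9 CPM in WT and 59.2, 56.9, 31.8 and 50.2 in KO on chow, and 60.4, 77.3, 87.8 and 72.2 in WT and 65.7, 71.3, 79.8 and 76.5 in KO on HFD. It rose by 0.55 on the log2 scale over both genotypes (SE 0.16, adjusted p 0.0202 in edgeR), and 6 of 8 HFD libraries were above every chow library. Adamts6 had 14.1, 7.88, 4.79 and 12.8 CPM in WT and 9.44, 11.1, 15.2 and 9.94 in KO on chow, and 11.4, 6.96, 4.79 and 5.73 in WT and 8, 4.74, 5.96 and 6.14 in KO on HFD. It fell by 0.67 on the log2 scale over both genotypes (SE 0.23, adjusted p 0.0352 in edgeR).

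Among the ADAMTS-like genes, whose proteins bind microfibrils without cutting, 2 of 5 rose over both genotypes. Adamtsl4 had 33.6, 39.1, 37.3 and 26.2 CPM in WT and 41.2, 25.4, 27.8 and 41.7 in KO on chow, and 39.7, 50, 45.9 and 53.5 in WT and 49.6, 43.6, 39.3 and 40 in KO on HFD. Its log2 fold change was 0.41 (SE 0.12, adjusted p 0.0171 in edgeR). Adamtsl3 had 3.26, 6.45, 2.93 and 3.45 CPM in WT and 5.16, 2.85, 2.6 and 2.5 in KO on chow, and 5.02, 6.19, 7.51 and 5.35 in WT and 6.66, 5.01, 3.99 and 3.77 in KO on HFD, with a log2 fold change of 0.57 (SE 0.21, adjusted p 0.0494 in edgeR). Adamtsl5 had 17.1, 20.7, 15.4 and 14 CPM in WT and 19.6, 10.4, 9.61 and 15.7 in KO on chow, and 11.8, 18.2, 18.4 and 20.7 in WT and 16.8, 14.9, 13.2 and 14.4 in KO on HFD. On chow Adamtsl2 had 8.6, 5.9, 4.19 and 3.89 CPM in WT and 3.52, 2.78, 6.65 and 13.6 in KO, and for both of these genes the diets overlapped (log2 fold changes 0.07 and -0.06).

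**Figure D3:**
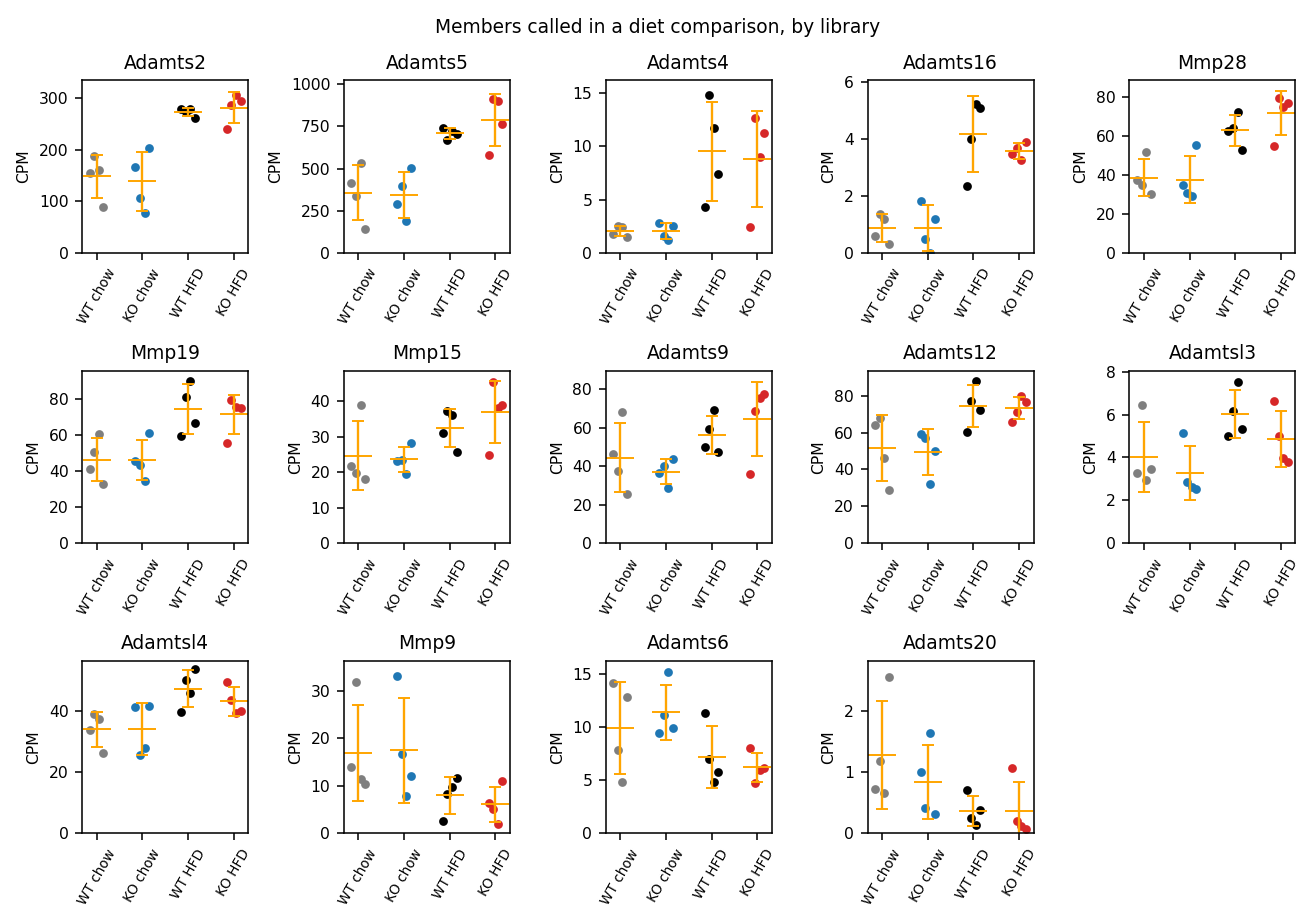
CPM of the 14 genes called in at least 1 diet comparison, 1 point per library, with the group mean and SD in orange and axes from 0. For Adamts2, Adamts5 and Adamts16 every HFD point lies above every chow point, and for Mmp9, Adamts6 and Adamts20 the HFD means lie below the chow means.

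Of the 14 MMPs tested, Mmp28, Mmp19 and Mmp15 rose on HFD over both genotypes and Mmp9 fell. Mmp28, the secreted protease epilysin, had 37.2, 34.9, 51.9 and 30.3 CPM in WT chow and 35, 30.7, 29.3 and 55.1 CPM in KO chow. On HFD it had 62.3, 64.1, 72.4 and 52.8 CPM in WT and 54.8, 79.5, 74.5 and 77.1 CPM in KO. Only KO chow replicate 4, at 55.1 CPM, reached into the HFD range. Mmp28 rose by 0.70 on the log2 scale in WT (SE 0.20, adjusted p 0.0365 in edgeR) and by 0.93 in KO (SE 0.20, adjusted p 0.0115).

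Mmp19, a secreted protease of basement membrane proteins, had 40.7, 50.6, 60.4 and 32.9 CPM in WT chow and 45.2, 43.4, 34.2 and 61 CPM in KO chow. HFD values were 59, 80.8, 89.8 and 66.4 CPM in WT and 55.5, 79.5, 75.3 and 75 CPM in KO. It rose by 0.68 on the log2 scale in WT (SE 0.20, adjusted p 0.0410 in edgeR). In KO the log2 fold change was 0.63 (SE 0.20, adjusted p 0.0520 in edgeR, 0.0109 in limma-voom and 0.0257 in DESeq2), and over both it was 0.66 (adjusted p 0.00325). Other genes overlap 28.3% of the exon bases of Mmp19 and 12% of those of Mmp28, and the counting did not use strand, so reads of these partners cannot be told apart from theirs.

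Mmp15 is a membrane-bound MMP. It had 21.8, 19.9, 38.9 and 18.1 CPM in WT and 23.1, 23.5, 19.5 and 28.2 in KO on chow, and 31.1, 37.1, 36.2 and 25.6 in WT and 24.7, 45.5, 38.2 and 39.1 in KO on HFD. It rose by 0.52 on the log2 scale over both genotypes (SE 0.16, adjusted p 0.0242 in edgeR), with overlap between the diets.

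Mmp9, the second gelatinase, was the MMP that fell. It had 13.9, 31.9, 11.4 and 10.3 CPM in WT chow and 33.1, 16.7, 7.86 and 12.1 CPM in KO chow. The HFD libraries had 2.48, 8.17, 9.64 and 11.7 CPM in WT and 6.3, 5.14, 1.84 and 10.9 CPM in KO. WT chow replicate 2 and KO chow replicate 1 were the highest, and 4 of 8 HFD libraries were below every chow library. Mmp9 fell by 1.30 on the log2 scale over both genotypes (SE 0.42, adjusted p 0.0286 in edgeR). Neutrophils store its protein. The 8 neutrophil markers summed to 9.25 to 15.5 CPM for WT and 6.24 to 13.5 for KO on chow, and 7.87 to 19.5 for WT and 5.44 to 12.4 for KO on HFD, with up to 2 of the 8 at 0 counts in a group. Of these 8 markers 4 were tested; their median log2 fold change over both genotypes was -0.62, in the direction of Mmp9, and 1, Csf3r, was called lower. S100a8, at 0.79, had the opposite sign. Their part in the Mmp9 level was not tested.

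T cell marker sums were higher on chow in several libraries, at 30.7, 186, 10.6 and 395 CPM in WT and 148, 18.5, 363 and 17.7 in KO on chow, and 17.6, 95.4, 33.1 and 6.8 in WT and 146, 13.3, 12.7 and 10.3 in KO on HFD. The median log2 fold change of the 9 T cell markers over both genotypes was -2.10, but none of them was called. With a lymphoid score as a covariate in the edgeR fit, the diet calls of 4 genes over both genotypes were lost. The log2 fold change of Mmp9 was then -1.2 (adjusted p 0.0732), that of Adamts6 -0.50 (0.106), that of Adamts9 0.39 (0.0596) and that of Adamts20 -0.84 (0.160). The calls of Adamts2, Adamts4, Adamts5, Adamts12, Adamts16, Mmp19, Mmp28 and Adamtsl4 over both genotypes held with that covariate and under each of the other 25 alternatives. Progenitor and fibroblast markers summed to 989 to 2358 CPM in WT and 1074 to 2124 in KO on chow, and 1604 to 3083 in WT and 1955 to 2417 in KO on HFD. Of these 10 markers 2 were called higher and 1 lower on HFD, and their part in the rise of the ADAMTS genes was not tested.

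The calls within 1 genotype depended on single libraries. In WT, leaving out WT chow replicate 1 or 4 or WT HFD replicate 2 or 3 left 1 call, leaving out WT HFD replicate 4 left 2, and leaving out WT chow replicate 2, WT HFD replicate 1 or KO HFD replicate 2, 3 or 4 left 3. In KO, 2 calls were left without KO chow replicate 2 or 3 or KO HFD replicate 2 or 3, 7 were made without WT chow replicate 4, and 8 without WT chow replicate 3 or KO HFD replicate 1. Adamts4 was called in both genotypes in each of these fits, with adjusted p up to 0.0406 in WT and 0.0471 in KO. Other calls in 1 genotype were lost in 4 to 10 of the 16 such fits: in WT those of Adamts2 (adjusted p up to 0.102), Adamts16 (0.117), Mmp19 (0.129) and Mmp28 (0.113), and in KO those of Adamts2 (0.064) and Adamts5 (0.0914). Mmp28 kept its call in KO in all 16. Other members passed in KO under some alternatives without being called in the edgeR test above: Mmp19 in 8, Mmp15 and Adamts9 in 6 each, Adamts6 and Adamts16 in 4 each, Adamts12 and Adamts20 in 2 each and Mmp9 in 1.

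Over both genotypes, 9 calls were made without KO chow replicate 3 and 8 without KO HFD replicate 2. Mmp15 lost its call without either of these libraries (adjusted p up to 0.0547 in edgeR), and Mmp9 lost its call (up to 0.0617) when KO HFD replicate 2, KO chow replicate 1 or WT chow replicate 2 was left out. Adamts6, Adamts9 and Adamts20 each lost theirs in 10 of the 16 fits (up to 0.0815, 0.0757 and 0.115) and Adamtsl3 in 13 (up to 0.0997), so these 4 calls depended on which libraries entered the fit.

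The abundant members Mmp2, Mmp3 and Mmp14 did not pass the diet test. Mmp2 had 174, 266, 132 and 114 CPM in WT and 212, 133, 83.5 and 178 in KO on chow, and 135, 207, 192 and 291 in WT and 185, 168, 153 and 206 in KO on HFD. Its log2 fold change over both genotypes was 0.25 (interval -0.21 to 0.70, adjusted p 0.392 in edgeR). Mmp14 had 101, 134, 97.5 and 82.6 CPM in WT and 136, 81.7, 62.8 and 112 in KO on chow, and 70.7, 125, 119 and 114 in WT and 98.8, 100, 86.2 and 113 in KO on HFD (log2 fold change 0.04, interval -0.30 to 0.38). Mmp3 ran from 22.4 to 70 CPM on chow and from 23.9 to 59.1 CPM on HFD.

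None of the 4 TIMPs was called for diet in edgeR, and 1, Timp3, had an unadjusted p under 0.05 over both genotypes. Timp2 had 301, 775, 237 and 224 CPM in WT and 651, 224, 171 and 295 in KO on chow, and 262, 462, 439 and 730 in WT and 488, 353, 300 and 448 in KO on HFD. Within a group its highest and lowest libraries thus differed by more than the group means did. Timp3, which is held in the matrix and also inhibits Adamts4 and Adamts5, had 135, 184, 197 and 103 CPM in WT and 123, 155, 129 and 178 in KO on chow, and 130, 121, 118 and 109 in WT and 148, 107, 111 and 112 in KO on HFD. Its log2 fold change over both genotypes was -0.33 (interval -0.60 to -0.06, adjusted p 0.0547 in edgeR), and 21.3% of its exon bases are shared with Syn3. This value lay at the threshold: 11 alternatives put Timp3 past it, among them limma-voom (adjusted p 0.0181), DESeq2 (0.0434) and upper-quartile factors (0.0242), all with a lower level on HFD.

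Timp4, an inhibitor with high levels in fat and heart, had 176, 155, 279 and 69.8 CPM in WT and 119, 143, 125 and 216 in KO on chow, and 134, 109, 101 and 247 in WT and 243, 149, 158 and 131 in KO on HFD. The log2 fold change of Timp4 over both genotypes was -0.01 (interval -0.58 to 0.56). Timp1 had 2.41, 2.11, 2.39 and 1.34 CPM in WT chow and 1.07, 1.29, 1.99 and 2.69 CPM in KO chow. On HFD the gene had 2.54, 4.91, 4.12 and 2.2 CPM in WT and 2.12, 1.8, 2.15 and 1.67 CPM in KO, so every WT HFD value was above every KO HFD value.

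No overlap between the diets was found for 6 of the 40 genes in WT (15%, against 17.4% of all genes) and for 5 in KO (12.5%, against 18.6%). These shares lay near or below those of all genes.

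None of the 40 genes differed between KO and WT at the threshold, on chow, on HFD or over both diets. In each of these comparisons 1 of 16549 genes was called (0.00604%), and in the test of the interaction of genotype and diet 0 were (0%). At an unadjusted p under 0.05 in edgeR, 0 of the 40 genes were found on chow, 1 on HFD (2.5%), 2 over both diets (5%) and 0 for the interaction, against 1%, 1.14%, 0.997% and 1.13% of all genes. DESeq2 gave 0, 2, 2 and 0 at that level and limma-voom 0, 3, 2 and 0, and neither tool called a member after adjustment. The authors' deposited tables listed 43 of the genes for chow and 44 for HFD, and 0 had an adjusted p under 0.05 on either diet.

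The smallest unadjusted p on HFD was that of Timp1, with a log2 fold change of KO against WT of -0.83 (interval -1.52 to -0.13, adjusted p 1.0 in edgeR). It was the 1 member of 40 whose genotypes did not overlap on HFD (2.5%, against 1.42% of all genes). Mmp3 came next, with -0.62 (interval -1.27 to 0.03), and then Adamtsl2, with 0.44 (interval -0.40 to 1.28). Mmp3 had 23.9, 57.9, 57.7 and 59.1 CPM in WT HFD and 26.3, 36.6, 27.7 and 38.4 CPM in KO HFD. Adamtsl2 had 6.36, 4.66, 4.72 and 4.47 CPM in WT HFD and 6.51, 5.81, 7.55 and 7.53 CPM in KO HFD, and its groups overlapped.

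On chow the smallest p was that of Mmp3, with a log2 fold change of -0.44 (interval -1.09 to 0.21, adjusted p 1.0 in edgeR). Its values were 43.5, 70, 46 and 27.3 CPM in WT chow and 37.6, 37.2, 22.4 and 40.6 CPM in KO chow, and the groups overlapped. Adamtsl5 followed with -0.28 and Adamts14 with -0.25. Over both diets the 3 genes with the smallest p were Mmp3 (log2 fold change -0.53), Timp1 (-0.53) and Adamtsl5 (-0.25), each with an adjusted p of 1.0 in edgeR. For the 12 skeletal muscle markers tested, the median log2 fold change of KO against WT over both diets was -1.82, and none of them was called. Their sums ranged widely within groups, from 75.4 to 5240 CPM in WT chow and from 18.3 to 894 in KO chow. With a muscle score as a covariate, 0 of the 40 genes had an unadjusted p under 0.05 over both diets in edgeR, and the log2 fold changes of Mmp3 and Timp1 were -0.51 and -0.36. The part of muscle in these values was not tested.

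**Figure D4:**
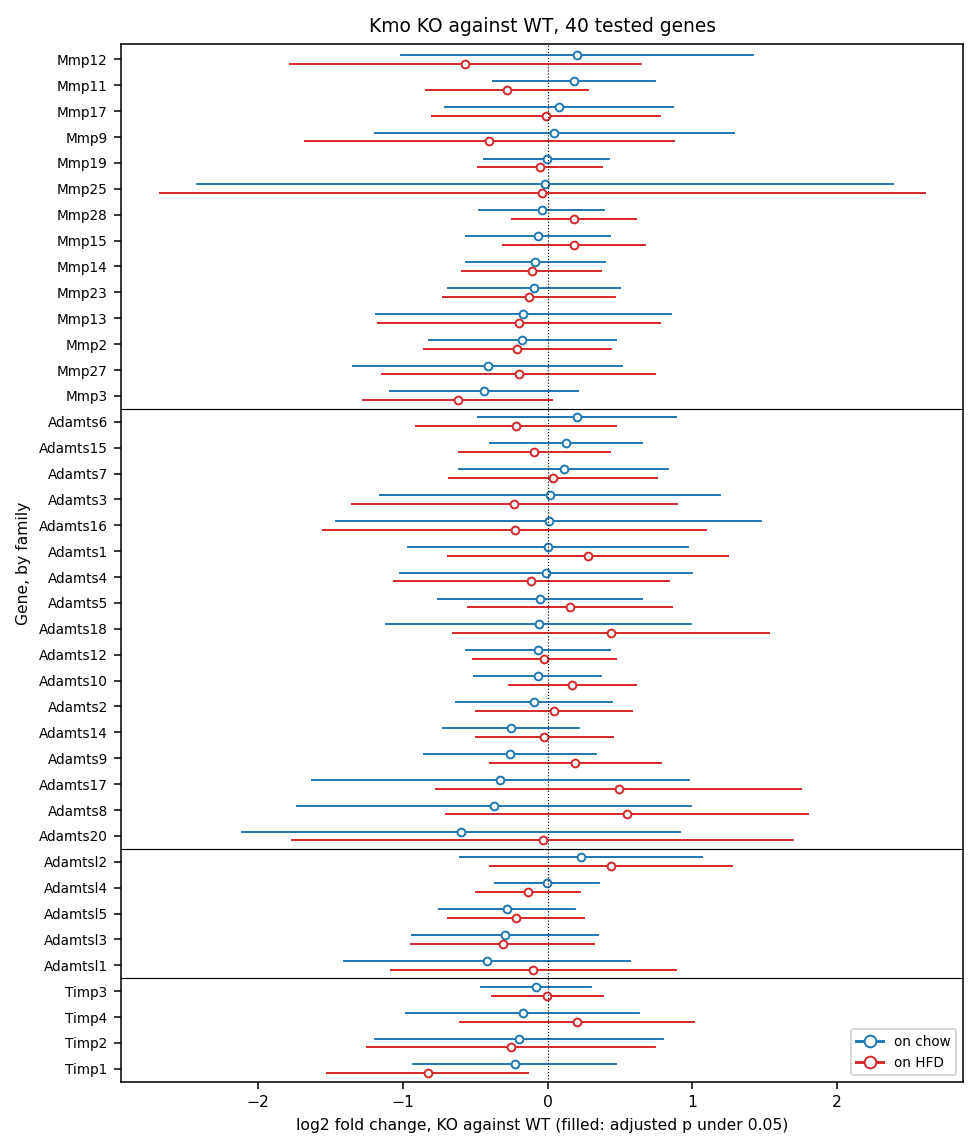
Log2 fold change of KO against WT for the 40 tested genes on chow (blue) and on HFD (red), with 95% intervals from edgeR; a filled point would mark an adjusted p under 0.05. All points are open, and on HFD the interval of Timp1 ends below 0.

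The diet effects were also compared between genotypes directly. For the interaction, Timp1 had a log2 difference of -0.60 (interval -1.58 to 0.38), Mmp11, a stromelysin activated inside the cell, -0.46 (interval -1.25 to 0.33) and Adamts9 0.45 (interval -0.38 to 1.29), each with an adjusted p of 1.0 in edgeR. Mmp11 had 13.4, 9.56, 6.52 and 8.81 CPM in WT and 7.74, 8.55, 11.2 and 16 in KO on chow, and 15, 10.1, 10.1 and 7.37 in WT and 9.2, 8.08, 10.1 and 7.74 in KO on HFD. For Adamts2, Adamts4 and Adamts5 the interaction was 0.14 (interval -0.62 to 0.90), -0.10 (interval -1.49 to 1.29) and 0.21 (interval -0.79 to 1.2). These intervals are wide enough to hold diet effects in KO that are larger or smaller than in WT.

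Genes that act with these proteases were counted from lists of their substrates, activators and other inhibitors, over both genotypes. Of 13 fibrillar, basement membrane and other collagens, type VI among them, 12 rose on HFD and 0 fell, with a median log2 fold change of 0.99. Col5a1 went from 243 ± 80.4 CPM in WT chow to 529 ± 57.1 in WT HFD (SD, n = 4 each), Col6a2 from 380 ± 112 to 824 ± 90.7 and Col4a2 from 735 ± 280 to 1778 ± 369. Of 16 tested proteoglycan and glycoprotein substrates 10 rose and 0 fell, with a median of 0.76. Eln, the elastin gene, rose by 1.76 on the log2 scale (SE 0.15, adjusted p 1.9e-05 in edgeR), and Hspg2, which encodes perlecan, by 1.23. Versican, the substrate shared by several of the ADAMTS proteases above, stood at 17.4 ± 9.37 CPM (Vcan) in WT chow and 39.5 ± 14.9 in WT HFD, and aggrecan (Acan) was at or below 0.0951 CPM in every group mean.

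Of 13 tested microfibril genes 9 rose and 1, Ltbp2, fell. Fbn1, which encodes fibrillin-1, went from 116 ± 84.3 CPM in WT chow to 487 ± 143 in WT HFD. Of 10 other inhibitors and surface regulators 6 rose, among them Sparc, from 3397 ± 1042 to 7878 ± 862 CPM, Thbs1, Lrp1, a clearance receptor for proteases, and Tfpi2. Reck, a membrane-anchored MMP inhibitor, was at 14.1 ± 3.78 and 16.1 ± 4.62 CPM.

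Among 12 tested proteases that activate the precursors 3 rose, Pcsk5, Ctsl and Ctsb, with log2 fold changes of 0.64, 0.62 and 0.31. Both tested astacin proteases, Bmp1 and Tll1, rose, by 0.61 and 0.48. Of 12 ADAM proteases 4 rose and 2 fell, with Adam12 at 43.4 ± 5.42 CPM in WT chow and 113 ± 41.0 in WT HFD. Of 8 genes of the plasminogen system 2 rose, Anxa2 and S100a10, and 1, Plgrkt, fell. Of 16 cytokines and transcription factors known to act on protease genes 2 rose, Fosl2 and Stat3, with log2 fold changes of 0.56 and 0.18, and the list's median was -0.005. Over all genes 17.1% rose and 16% fell in this comparison, with a median of -0.04.

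The other 19 members had mean levels of 0.0623 to 73.1 CPM, and 14 of them were tested without passing in any comparison. The most abundant was Adamts10, at 73.1 CPM, a protease linked to microfibrils. Mmp12, the macrophage elastase, ran from 7.95 to 57.2 CPM with overlapping groups. It lies in the chromosome 9 cluster of 6 MMP genes (GRCm38, 7272514 to 7699585), where Mmp13 was at 0.897 CPM on average, Mmp27 at 2.76, and Mmp7 and Mmp8 were too low to test. No gene of this cluster was called in any comparison. Mmp25, a leukocyte MMP picked out after its values were seen, had 0.456, 3.1, 0.133 and 7.4 CPM in WT and 2.01, 0.136, 8.1 and 0.688 in KO on chow, and 0.636, 2.17, 0.333 and 0.252 in WT and 1.77, 0.2, 0.86 and 0.488 in KO on HFD. Its 2 highest libraries, WT chow replicate 4 and KO chow replicate 3, were also those with the highest T cell marker sums, and the part of these cells in its level was not tested. Mmp20, Mmp21, Mmp24, Mmp1a, Mmp1b and Mmp10 carry such symbols in the reference but not in the authors' tables, and had 0 to 11 counts in all.

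**Figure D5:**
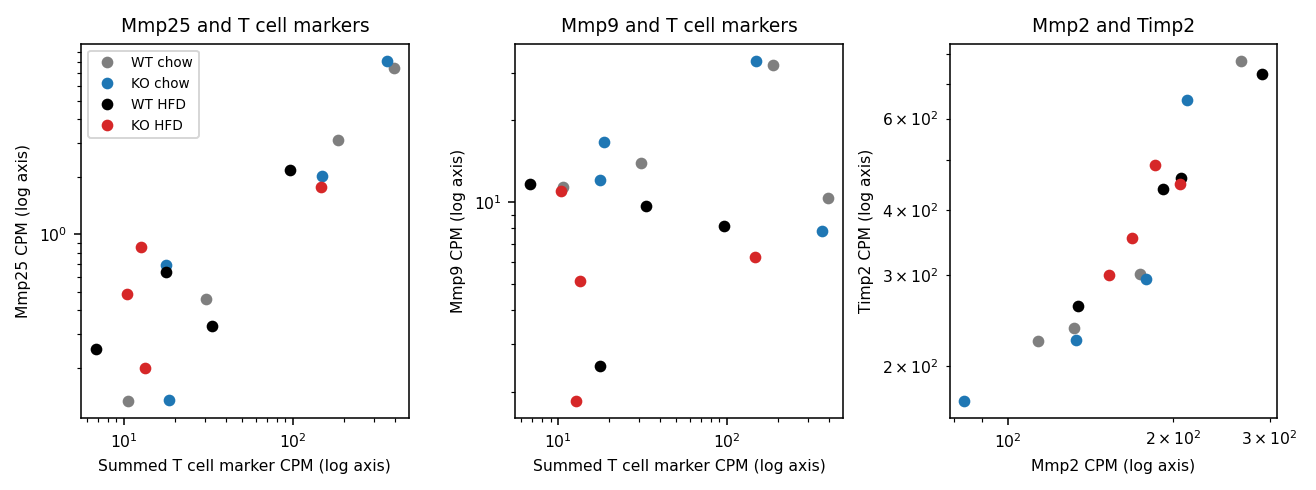
Mmp25 and Mmp9 against the summed CPM of 9 T cell markers, and Timp2 against Mmp2, 1 point per library on log axes, coloured by group. Mmp25 is highest in the 2 libraries with the highest marker sums, whereas Mmp9 is not, and Timp2 follows Mmp2 across all 4 groups.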

How the data were processed

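Poly-A RNA of 16 samples was sequenced as read pairs with a stranded kit, per the labels' protocols. The authors aligned with STAR 2.7.3a to GRCm38.p6, per the submitters' processing notes. The deposited counts are whole read pairs per gene from featureCounts 2.0.3 on Ensembl 102 without strand, per the file headers, and are not normalised. The authors' deposited log2 fold changes and p-values (DESeq2, per the submitters' processing notes) were used only where credited to them.

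Counts were tested with edgeR 4.0.16 in R 4.3.3 (filterByExpr, TMM, robust quasi-likelihood fit of the 4 group means over all 16 libraries), with Benjamini-Hochberg adjustment over 16549 genes and a threshold of 0.05. CPM uses TMM factors. Intervals are 95% intervals. The effect over both genotypes or diets is the mean of both effects. The script was tested on simulated data with known changes. For diet in WT it recovered 16% of 1.5-fold, 56% of 2-fold and 82% of 4-fold changes. For KO against WT on HFD the shares were 10%, 52% and 84%. Of 8-fold changes 82% and 86% were recovered, so large changes can go uncalled too, and small ones more often. In the simulation 50 genes were changed at each fold, fewer in all than were called for diet here, so the shares are a rough guide. DESeq2 1.42.0, limma-voom (limma 3.58.1), other factors, filters and covariates, a replicate block and leaving out each library were alternatives.

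The members and gene lists were chosen with earlier results of these data known. Shown library by library are all TIMPs, called members, the 3 most abundant members per other family and, for genotype and interaction, the 3 with the smallest p, plus Mmp25; listed genes are up to 4 per list, called ones first. Vcan, Acan and Reck were named after their values were seen. Depth limits genes under about 1 CPM. No 2 libraries agreed within sampling noise (lowest chi-square per gene 10.6). Each replicate has a code of its own in the labels, nothing else says that it is a separate animal, and p-values measure the spread between these samples.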

Additional observations from a re-analysis of the deposited data

Results flagged for a closer look

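In 9 of 104 combinations of a described gene and a group, 1 library stood far from the other 3 by Dixon's test at the 95% level, and chance flags about 1 in 20 groups. In WT chow, Mmp9 was 31.9 CPM in replicate 2 against 10.3 to 13.9 in the others, Timp2 was 775 CPM in replicate 2 against 224 to 301, and Adamtsl3 was 6.45 CPM in replicate 2 against 2.93 to 3.45. In the same group Adamts1 was 133 CPM in replicate 3 against 37.2 to 39.7. In KO chow, Adamtsl3 was 5.16 CPM in replicate 1 against 2.5 to 2.85.

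In WT HFD, Mmp3 was 23.9 CPM in replicate 1 against 57.7 to 59.1, and Adamtsl2 was 6.36 CPM in the same replicate against 4.47 to 4.72. In KO HFD, Adamts20 was 1.06 CPM in replicate 1 against 0.0697 to 0.2, and Timp3 was 148 CPM in that replicate against 107 to 112. WT chow replicate 2 and KO HFD replicate 1 are among the 4 libraries from a single lane, and the part of the lane in these values was not tested.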

How the results depend on the processing

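Of 925 values of single genes under an alternative, 804 kept their direction and side of the threshold. The other 121 no longer passed it, and 0 changed direction. These values came from the called diet results and from genotype and interaction results that lay far from the threshold. The latter could hardly change side and all kept it, so all 121 losses fell on the called diet results. Members just short of the threshold, such as Timp3 over both genotypes, were left out. A move past it could therefore hardly appear in this tally. The count of members called for HFD against chow in WT (5) became 1 without the filter on low counts, 1 with the replicate block and 2 with a term for single-lane libraries, and 1 to 7 when each library was left out in turn. In KO the count (4) became 2 without the filter, 2 with the replicate block, 8 with a skeletal muscle covariate, 11 with limma-voom and 10 with DESeq2, and 2 to 8 when each library was left out. Over both genotypes (14) it was 8 to 14 when each library was left out and 12 with the replicate block; the genotype and interaction counts stayed at 0 in every alternative run. The replicate numbers do not pair the samples: same-numbered libraries had a mean correlation of -0.084 over 24 pairs. Over all genes, the counts called fell from 1957 to 1245 without the filter and to 1050 with the block in WT, and from 2071 to 1284 and 1126 in KO, and limma-voom called 3412 in KO. Of the 14 calls over both genotypes, those lost most often were Adamtsl3 (18 of 26 alternatives), Adamts9 (13), Adamts20 (13), Adamts6 (12), Mmp9 (6) and Mmp15 (2). Timp3 passed over both genotypes in 11 alternatives and Adamts5 in WT in 6, and in KO Mmp19 passed in 8, Mmp15 and Adamts9 in 6 and Adamts6 and Adamts16 in 4. The cause was not tested.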

Other observations

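Across libraries, the level of Timp2 followed that of several MMPs, Mmp2 and Mmp14 among them, which with Timp2 form the known complex that activates the Mmp2 precursor. These pairs were picked out after the values were seen, from 56 pairs of 4 TIMPs and 14 tested MMPs. For Mmp2 and Timp2, Pearson's r of log2 CPM over the 16 libraries was 0.942 and Spearman's rho 0.956, each with a permutation p of 1e-05, the smallest that 100000 permutations can give, and an adjusted p of 0.00056. Within groups, as deviations from group means, r was 0.934 (permutation p 2e-05, adjusted p 0.00112). Without the 2 libraries farthest from the median of Mmp2 r was 0.933, and over the 12 libraries merged over lanes it was 0.91, and the 4 single-lane libraries are too few for a value. For Mmp14 and Timp2 r was 0.842 and rho 0.85 (permutation p 4e-05 and 7e-05, adjusted p 0.00112 and 0.00196), 0.86 within groups (adjusted p 0.00602) and 0.821 without the 2 farthest libraries. MMPs outside that complex also followed Timp2. Mmp23 and Timp2 had an r of 0.818 and a rho of 0.806 (permutation p 0.00018 and 0.00027, adjusted p 0.00336 and 0.00378), 0.8 within groups (adjusted p 0.022) and 0.772 without the 2 farthest libraries. Within groups, r with Timp2 was also 0.915 for Mmp27 and 0.84 for Mmp9 (permutation p 4e-05 and 0.00028, adjusted p 0.00112 and 0.00523). Over all 16 libraries r was 0.63 and 0.401 (permutation test, adjusted p 0.0815 and 0.482). Without the 2 farthest libraries it was 0.375 and 0.378, and over the 12 merged libraries 0.496 and 0.29. Mmp12, the macrophage elastase, and Timp1 had an r of 0.762 and a rho of 0.824 (permutation p 0.00059 and 0.00014, adjusted p 0.00826 and 0.00261), and an r of 0.823 without the 2 farthest libraries. Within groups 7 of the 56 pairs passed an adjusted p of 0.05. Progenitor and fibroblast marker sums and macrophage marker sums also varied between libraries. WT HFD replicate 4, with the highest progenitor and fibroblast sum (3083 CPM), had the highest Mmp2 of all libraries. That sum and Mmp2 were also both highest within their group in WT chow replicate 2 (2358 CPM) and KO HFD replicate 4 (2417). Timp2 was highest in the same library in WT chow and WT HFD, but not in KO HFD. In KO chow the progenitor and fibroblast sum was highest in replicate 4 (2124 CPM), but Timp2 and Mmp2 in replicate 1. Macrophage sums and Timp2 were both highest within their group in WT chow replicate 2 (1863 CPM), KO chow replicate 1 (1549) and KO HFD replicate 1 (1357). In WT HFD the macrophage sum was highest in replicate 2 (1598 CPM), but Timp2 in replicate 4. The part of these cells in the correlations was not tested.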
